A study of Mus musculus with 24 samples.

Results

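The metallothioneins Mt1 and Mt2 and the metal transporters Slc30a1, Slc30a10, Slc39a14 and Slc39a4 were followed across 4 groups of mouse livers. They are 6 genes of the 49007 genes in the tables, and were found by their gene symbol. The symbols matched 8 features of the 69905 features listed, where a feature is 1 assembled transcript of 1 locus on 1 strand. The genes were chosen by their values in these same tables, so their levels and ratios are a description, with no test.

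The series holds 24 livers of wild-type C57BL/6 mice in 6 groups of 4, aged 18 weeks by the labels, and 16 livers of 4 groups enter here. Every mouse received a locked nucleic acid (LNA) antisense oligonucleotide for 12 weeks by the labels. The Scr LNA NCD mice received the control oligonucleotide (Scr, labelled CTRL NEG A) on the study's control diet, which the labels shorten to NCD. This diet held 11 kJ% fat, 62 kJ% carbohydrate and 27 kJ% protein. The Scr LNA HFD mice received the same oligonucleotide on a high-fat diet of 54 kJ% fat, 22 kJ% carbohydrate and 24 kJ% protein. The Mafg LNA HFD mice received an LNA against Mafg, a small MAF transcription factor, on the high-fat diet. The LincIRS2 LNA NCD mice received an LNA against the long noncoding RNA LincIRS2 (4833411C07Rik) on the control diet. Livers given Mafg LNA on the control diet or LincIRS2 LNA on the high-fat diet were not analysed here. The study's methods describe male mice, intravenous dosing, a longer treatment than the labels give, and an injection of saline or insulin drawn at random before the tissue was taken. The labels do not say which injection a liver had, so its share in any difference cannot be told apart. The LNAs were given to the whole animal and are not restricted to hepatocytes. The 3 oligonucleotides define the groups, and their sequences in the study's oligonucleotide list are as follows.
Scr LNA: aacacgtctatacgc
Mafg LNA: gtcttggactttacta
LincIRS2 LNA: ctcgattaacctgata

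Each group of 4 livers has 1 pooled value per feature, in FPKM, which is a fragment count corrected for transcript length and for sequencing depth. There is no value per liver, hence no spread or SD and no test of these values here, and read depth is unknown. The groups are set side by side in 3 comparisons, which share the Scr LNA groups, so they are not independent of each other. In whole liver, fewer cells of a type and less RNA per cell cannot be told apart.

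Metallothioneins are small cysteine-rich proteins that bind zinc, copper and cadmium in the cytosol. In liver their genes are switched on by the zinc-sensing factor MTF1 through metal response elements in their promoters, and also by glucocorticoids and by interleukin-6. ZnT proteins, encoded by Slc30a genes, move metal out of the cytosol, and ZIP proteins, encoded by Slc39a genes, move it in. Slc30a1 (ZnT1) exports zinc at the cell surface and is itself an MTF1 target. Slc30a10 exports manganese, Slc39a14 (ZIP14) takes up zinc, manganese and iron and is induced in inflammation, and Slc39a4 (ZIP4) is best known for zinc uptake in the intestine.

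RefSeq promoters, from 250 bases before to 50 bases after the annotated start, were at hand for 4 of the 6 members (assembly GRCm38.p6). They are shown because the metal response element is the sequence through which MTF1 acts on the metallothionein genes, with Slc30a10 as the other measured member. The core was searched on both strands as TGCACNC or TGCGCNC, and its matches are in capitals. The sequences run from 5′ to 3′ on the plus strand, which is the strand of each of these genes. The Mt2 promoter lies at chr8:94172368-94172667, that of Mt1 at chr8:94178839-94179138 and that of Slc30a10 at chr1:185454598-185454897.
Mt2: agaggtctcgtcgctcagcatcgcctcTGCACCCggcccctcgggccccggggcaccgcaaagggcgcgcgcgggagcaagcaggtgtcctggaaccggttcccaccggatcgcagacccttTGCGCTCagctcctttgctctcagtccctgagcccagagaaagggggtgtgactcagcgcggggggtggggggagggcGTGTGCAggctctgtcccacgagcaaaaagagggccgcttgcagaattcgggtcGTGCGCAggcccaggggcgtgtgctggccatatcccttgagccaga
Mt1: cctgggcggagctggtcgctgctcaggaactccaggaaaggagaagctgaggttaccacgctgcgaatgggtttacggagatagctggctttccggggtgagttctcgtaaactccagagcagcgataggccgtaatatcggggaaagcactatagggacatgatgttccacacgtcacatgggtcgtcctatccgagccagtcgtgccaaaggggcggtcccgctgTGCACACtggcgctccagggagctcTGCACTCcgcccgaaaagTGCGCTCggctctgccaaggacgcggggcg
Slc30a10: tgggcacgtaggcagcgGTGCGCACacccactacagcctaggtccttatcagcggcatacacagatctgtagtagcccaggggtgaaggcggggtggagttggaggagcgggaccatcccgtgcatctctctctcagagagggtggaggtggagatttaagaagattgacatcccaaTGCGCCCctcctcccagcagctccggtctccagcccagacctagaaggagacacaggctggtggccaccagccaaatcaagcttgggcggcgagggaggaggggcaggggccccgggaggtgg
The Mt2 promoter holds 4 matches, 2 on each strand, and 0.517% of the 32851 promoters in the table hold at least as many. Mt1 has 3 matches, all on the plus strand, from 23 bases before to 26 bases after the annotated start used here. Slc30a10 also has 3, of which 2 overlap on opposite strands and share most of their letters. At least 3 matches occur in 1.97% of promoters, and 25.7% hold at least 1. Slc30a1 has 2 matches, both on the minus strand, a number reached or passed by 7.11% of promoters. The antioxidant response element core, TGACNNNGC, matched once in Mt2 and once in Slc30a1, against 12.4% of promoters with at least 1 match. The STAT site, TTCNNNGAA, had 0 matches in these 4 promoters and at least 1 in 8.30% of all promoters. The search ended 50 bases after the annotated start, so matches further on are not counted and the counts depend on that start. A match of letters is not a measured binding site.

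**Figure D1:**
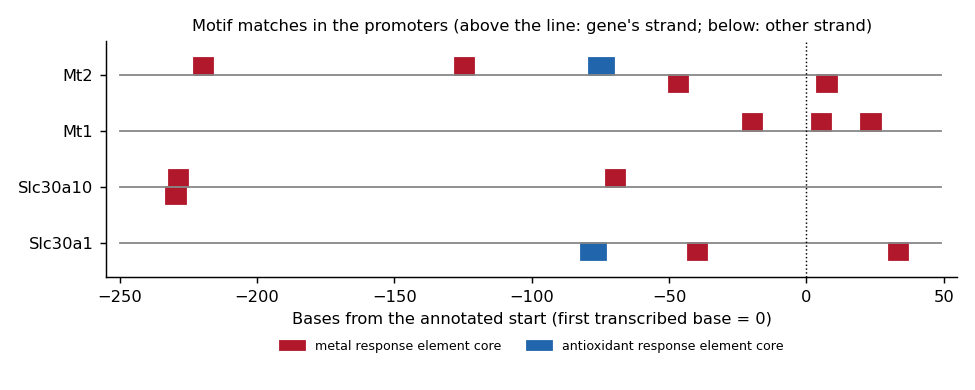
Matches to the metal response element core (red) and the antioxidant response element core (blue) in 4 promoters, by distance in bases from the annotated start. Boxes above a line are matches on the gene's strand and boxes below it are on the other strand, and Mt2 has 4 red boxes where Mt1 and Slc30a10 have 3 each.

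Of the 8 features, 4 had a mean of at least 0.1 FPKM over the 4 groups and count as measured, and they belong to 3 of the 6 genes. These are 1 feature of Mt1, 1 of Mt2 and both features of Slc30a10. The other 4 were at or near 0. Slc39a4, Slc39a14 and Slc30a1 had 1 feature each, and its level was 2.92e-08 FPKM or less in every group. The second feature of Mt1 was at 0.00651 FPKM in the Mafg LNA HFD group and at 3.47e-08 FPKM or less in the other groups. These near-zero values are not gene levels. The tables list 1 transcript number per locus and strand, and the numbers skipped after it point to further transcripts that are not analysed here. No number was skipped after 85.4% of the features of genes with 1 annotated transcript, against 37.1% for genes with more than 5. Counted this way, the listed Slc39a14 transcript is 1 of 18 at its locus, that of Slc39a4 1 of 8, that of Slc30a1 1 of 3 and the near-zero Mt1 transcript 1 of 4. The measured Mt2 transcript is 1 of 2, and the measured Mt1 and Slc30a10 transcripts are single.

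The strand of a feature is not written in the tables. It was inferred from the order of the locus numbers, which run along the plus strand and then along the minus strand of each chromosome. By this reading 99.99% of the matched features listed at 0 lie on their gene's strand, but only 37.1% of those with a mean of at least 1 FPKM do. The members follow the same division. Mt2 was measured on its own strand, Mt1 only on the opposite strand, and Slc30a10 on both, with 8.22 to 9.10 times more FPKM on the opposite strand in the 4 groups. The libraries were strand-specific, and whether reads of the gene or of an antisense transcript were counted in an opposite-strand feature was not tested.

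Mt2 (ENSMUSG00000031762) had the highest level of the measured members in every group. Its feature covers chr8:94170748-94173568 on GRCm38, a locus that begins before the annotated start of the gene at 94172664. The antisense transcript Gm45774 is listed at the same locus, and whether its reads enter the Mt2 value was not tested. The Mt2 feature was at 6.12 FPKM in the Scr LNA NCD group, 15.2 FPKM in Scr LNA HFD, 9.75 FPKM in Mafg LNA HFD and 43.0 FPKM in LincIRS2 LNA NCD. The LincIRS2 LNA NCD livers stood highest, and the Scr LNA NCD livers on the same diet stood lowest, 7.02-fold below them. The high-fat diet group with Scr LNA was 2.48-fold above its control diet group, and the Mafg LNA HFD group lay between these 2 values.

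Mt1 (ENSMUSG00000031765) lies on the same chromosome, and its gene starts 6.42 kb past the start of Mt2. Its measured feature covers chr8:94179082-94182751, a locus that runs past the annotated end of the gene at 94180327. The level was 4.40 FPKM in Scr LNA NCD, 9.87 FPKM in Scr LNA HFD, 4.70 FPKM in Mafg LNA HFD and 12.1 FPKM in LincIRS2 LNA NCD. The order of the groups was that of Mt2, but the range was narrower, 2.74-fold from lowest to highest. In the Mafg LNA HFD group Mt1 was 1.07 times its Scr LNA NCD level, whereas Mt2 was 1.59 times its own.

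Since FPKM are corrected for transcript length, the measured Mt2 and Mt1 features were set against each other within a group. This compares 1 listed transcript of each and is not a ratio of gene levels. Mt2 was 1.39 times Mt1 in Scr LNA NCD and 1.54 times in Scr LNA HFD. The ratio was 2.08 in the livers with Mafg LNA and 3.56 in those with LincIRS2 LNA. The ratio was greatest in LincIRS2 LNA NCD, where the Mt2 feature itself was highest, so it is not a separate observation. It did not follow the levels throughout, since Mafg LNA HFD had a greater ratio but lower levels than Scr LNA HFD. The ratio sets an own-strand feature against an opposite-strand one.

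Slc30a10 (ENSMUSG00000026614), the manganese exporter, was the flattest of the 3 measured genes. Both of its features cover chr1:185447116-185468772. The opposite-strand feature was at 4.65 FPKM in Scr LNA NCD, 4.35 FPKM in Scr LNA HFD, 3.37 FPKM in Mafg LNA HFD and 5.52 FPKM in LincIRS2 LNA NCD. The feature on the gene's strand was at 0.566 FPKM, 0.511 FPKM, 0.406 FPKM and 0.607 FPKM in the same order. Both features put the 4 groups in the same order, highest in LincIRS2 LNA NCD and lowest in Mafg LNA HFD. From lowest to highest the range was 1.64-fold for the opposite-strand feature and 1.5-fold for the other.

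**Figure D2:**
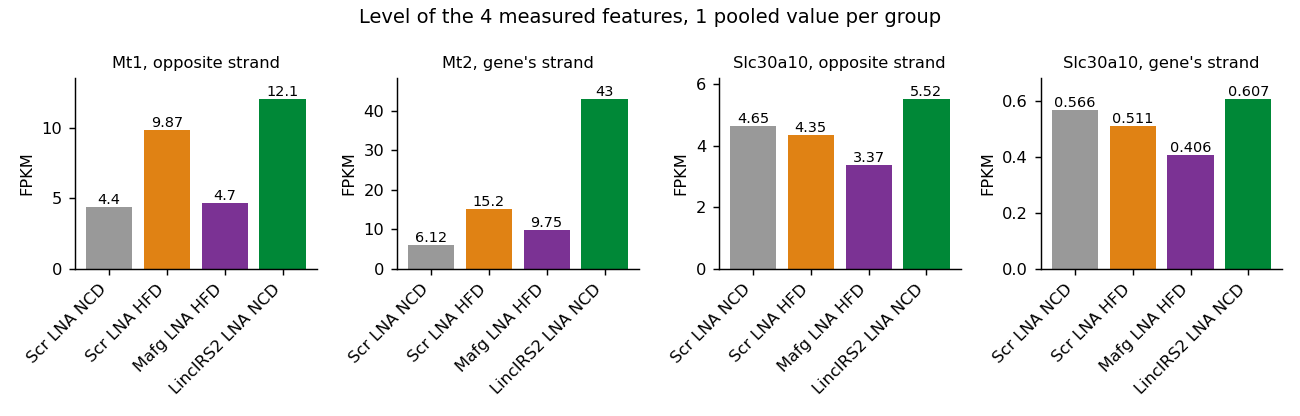
Level in FPKM of the 4 measured features (1 panel each, linear axes that start at 0 and differ between panels), with 1 bar per group for the pooled value of 4 livers and no error bars, since there is 1 value per group. Mt2 reached 43.0 FPKM and Mt1 12.1 FPKM in LincIRS2 LNA NCD against 6.12 and 4.40 FPKM in Scr LNA NCD, while the Slc30a10 bars differ little.

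The first comparison asked what the high-fat diet does under the control oligonucleotide. Ratios are given as log2 of the quotient of the FPKM values, each with 0.1 added, and a ratio of 1 or more in size, which is 2-fold, is counted. The log2 ratio of HFD over NCD was 1.30 for Mt2 and 1.15 for Mt1, both higher under the high-fat diet. For Slc30a10 it was -0.09 for the opposite-strand feature and -0.12 for the feature on the gene's strand. Of the 4 measured member features, 2 were past 2-fold higher and 0 past 2-fold lower. Among all 26805 measured features 4.19% were past 2-fold higher and 3.94% lower, and since the members were chosen on this contrast nothing is read from their count. Mt2 ranked 658th and Mt1 854th from the highest of these features. The members' median log2 ratio was 0.53 and that of all measured features was 0.00.

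The second comparison set Mafg LNA against Scr LNA on the high-fat diet. The log2 ratio was -1.06 for Mt1 and -0.63 for Mt2, both lower with Mafg LNA, a difference of -5.17 FPKM and -5.44 FPKM. Slc30a10 had -0.36 for the opposite-strand feature and -0.27 for the other. All 4 measured features were lower, but only Mt1 was past 2-fold, and 0 were past 2-fold higher. Past 2-fold, 4% of all measured features were lower and 7.89% higher. Mt1 ranked 969th and Mt2 2260th from the lowest. The count of 1 depends on the setting: the Mt1 ratio was -0.93 with 1 FPKM added to each value and -0.88 after scaling to summed FPKM. The median was -0.50 for the members and 0.02 for all measured features.

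The third comparison set LincIRS2 LNA against Scr LNA on the control diet. Both metallothioneins were further apart here than in the other comparisons, with a log2 ratio of 2.79 for Mt2 and 1.43 for Mt1, a difference of 36.8 FPKM for Mt2 and 7.67 FPKM for Mt1. Slc30a10 had 0.24 for the opposite-strand feature and 0.09 for the other. Of the 4 measured features 2 were past 2-fold higher and 0 lower, beside 3.12% higher and 3.26% lower of all measured features. Mt2 ranked 84th and Mt1 366th from the highest. Among the 8335 features with a mean of at least 1 FPKM they ranked 35th and 63rd. The median was 0.84 for the members and 0.01 for all measured features.

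**Figure D3:**
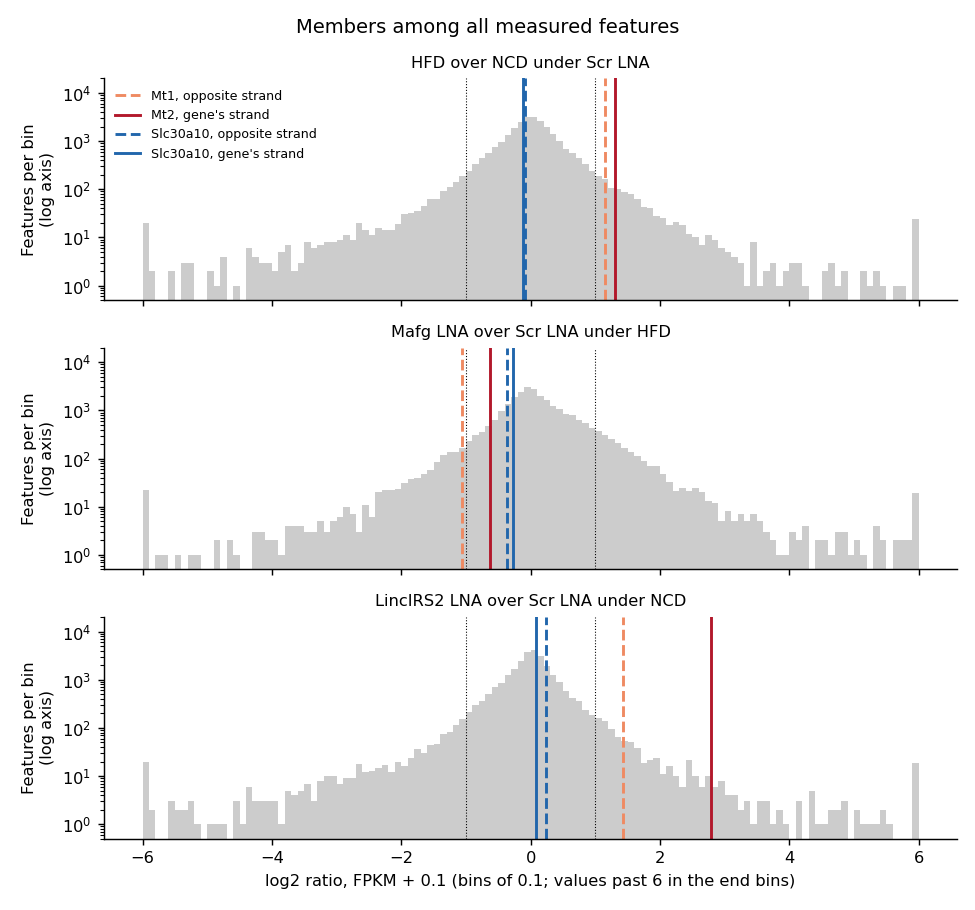
Number of measured features (26805, grey, log axis) in each bin of 0.1 of the log2 ratio in the 3 comparisons, with coloured lines at the members' ratios (solid on the gene's strand, dashed on the opposite strand) and dotted lines at 2-fold. Mt2 and Mt1 lie to the right at 1.30 and 1.15 under the high-fat diet and at 2.79 and 1.43 with LincIRS2 LNA, and to the left at -0.63 and -1.06 with Mafg LNA.

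The remaining metallothioneins gave no level to compare. Mt3, best known from brain, and Mt4, best known from stratified epithelium, had 1 feature each, listed at 0 in the 4 groups. Of the 4 genes of the family, 2 were therefore measured, and these are the members Mt1 and Mt2.

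The zinc exporter list holds 10 Slc30a genes, of which 7 were measured in 10 features. Apart from the members, 1 feature was past 2-fold in any comparison. It belonged to Slc30a3 (ZnT3), which loads zinc into synaptic vesicles, and was at 0.345 FPKM in Scr LNA NCD and 0.111 FPKM in Scr LNA HFD, a log2 ratio of -1.08 at a low level. The list's median log2 ratio was -0.10 for the diet, -0.05 for Mafg LNA and 0.02 for LincIRS2 LNA. Of the 14 ZIP importers, 11 matched a feature and 5 were measured, in 6 features, with 0 past 2-fold in any of the 3 comparisons. Their median log2 ratio was 0.08 for the diet, 0.08 for Mafg LNA and 0.23 for LincIRS2 LNA. Since 3.12% to 7.89% of all measured features were past 2-fold in a given direction, counts of 0 or 1 in lists this short lie near the background and say nothing particular of the transporters.

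MTF1 is the transcription factor that senses zinc. Its feature, 1 of 8 by the numbering, was listed at 0 in 3 groups and at a value near 0 in Mafg LNA HFD, so its level was not measured. The list drawn up for metal-responsive transcription holds 4 genes, MTF1's among them. Of these, 3 were measured in 4 features, namely Sp1, Mtf2 and Zfp658. With 0 past 2-fold in any comparison, the count is too small to set against the background. Whether these 3 genes respond to metal was not tested.

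Glucocorticoids and interleukin-6 are the hormonal and inflammatory inducers of liver metallothioneins, so lists of their usual targets were set beside the members. Of the 16 measured features of glucocorticoid targets, 0 were past 2-fold under the high-fat diet or with Mafg LNA. With LincIRS2 LNA 1 was higher, a minor feature of Tat, the tyrosine aminotransferase gene, at 0.161 FPKM in Scr LNA NCD and 0.494 FPKM in LincIRS2 LNA NCD. These counts lie near the shares of all measured features, 4.19% higher and 3.94% lower for the diet, 7.89% and 4% for Mafg LNA, and 3.12% and 3.26% for LincIRS2 LNA. The median log2 ratio of the list was -0.31, -0.02 and -0.08 in the 3 comparisons.

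The list of interleukin-6 and STAT3 targets, mostly acute-phase genes, had 25 measured features of 16 genes. With LincIRS2 LNA 5 of these 25 features, of 3 genes, were past 2-fold higher and 0 lower, where 3.12% of all measured features were higher. Saa2, a serum amyloid A gene, had an opposite-strand feature at 3.63 FPKM in Scr LNA NCD and 39.2 FPKM in LincIRS2 LNA NCD, a log2 ratio of 3.4. The opposite-strand feature of the neighbouring Saa1 was at 5.27 FPKM and 29.4 FPKM, a ratio of 2.46. Fgl1, a fibrinogen-like secreted protein, had a feature on its own strand, 1 of 5 transcripts, at 1.84 FPKM and 4.29 FPKM. Its opposite-strand feature was more abundant and nearly flat, at 5.07 FPKM and 5.24 FPKM (log2 ratio 0.05). Saa1 and Saa2 are near-identical copies, and reads may be split between them.

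With Mafg LNA, where the metallothioneins were lower, the list was mixed. There 5 of the 25 features, of 5 genes, were past 2-fold higher and 0 lower, where 7.89% of all measured features were higher. Saa2 was at 2.12 FPKM in Scr LNA HFD and 13.4 FPKM in Mafg LNA HFD, and Saa1 at 3.06 FPKM and 14.4 FPKM. Orm2, the acute-phase protein orosomucoid, was at 8.18 FPKM and 24.6 FPKM. Il1r1, the interleukin-1 receptor, had an opposite-strand feature at 2.18 FPKM and 4.51 FPKM. The own-strand feature of Fgl1 was at 0.111 FPKM and 1.97 FPKM, and its opposite-strand feature at 3.49 FPKM and 3.99 FPKM (log2 ratio 0.19). The most abundant genes of the list, the fibrinogen chains, lay lower with Mafg LNA, short of 2-fold. Fgg was at 990 FPKM in Scr LNA HFD and 758 FPKM in Mafg LNA HFD (log2 ratio -0.39), Fga had -0.37 and -0.35 in its features, and Fgb had -0.33. Orm1 had -0.22. Under the high-fat diet, where the metallothioneins were higher, 0 features of the list were past 2-fold higher and 2 were lower, the own-strand features of Fgl1 and Il1r1, where the opposite-strand feature of Fgl1 had a log2 ratio of -0.53. Short of 2-fold, Hp, the haptoglobin gene, had 0.21 and the opposite-strand feature of Lbp, the gene of the lipopolysaccharide-binding protein, 0.34. The more abundant own-strand feature of Lbp had -0.10. The opposite-strand feature of Socs3, also on the list, had 0.85 for the diet, -0.69 for Mafg LNA and 0.86 for LincIRS2 LNA. The own-strand feature of Socs3 went the other way, with -0.46, 0.62 and -0.35. Both Socs3 features were low, at 0.308 FPKM or less in every group. Among the features lower under the high-fat diet, short of 2-fold, were those of Orm2 (-0.82), Fgb (-0.60) and Fgg (-0.39). The list's median log2 ratio was -0.39 for the diet, 0.61 for Mafg LNA and 0.41 for LincIRS2 LNA. Members of the list thus lay on both sides in each of these comparisons, and the features named as past 2-fold do not stand for the list as a whole.

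NRF2 targets were included because small MAF proteins such as MAFG bind DNA together with NRF2 at antioxidant response elements. In 18 measured features of 10 genes, 5 were past 2-fold higher and 2 lower under the high-fat diet, where 4.19% of all measured features were higher and 3.94% lower. Gsta1, a glutathione transferase gene, had an opposite-strand feature at 0.123 FPKM in Scr LNA NCD and 1.47 FPKM in Scr LNA HFD, and Nqo1, a quinone reductase gene, had an own-strand feature at 0.108 FPKM and 0.744 FPKM. The lower ones were own-strand features of Hmox1, haem oxygenase (log2 ratio -1.43), and Gclc, a subunit of the enzyme that starts glutathione synthesis (-1.25). With Mafg LNA 3 were higher and 0 lower, beside 7.89% and 4% of all measured features. They were both features of Gsta1, the larger at 1.47 FPKM in Scr LNA HFD and 4.22 FPKM in Mafg LNA HFD, and 1 feature of Hmox1 at 0.349 FPKM and 0.974 FPKM. With LincIRS2 LNA 4 were higher, among them Osgin1 at 0.668 FPKM and 1.82 FPKM, and 2 lower, again own-strand features of Hmox1 (-1.01) and Gclc (-1.40), beside 3.12% and 3.26% of all measured features. The opposite-strand feature of Hmox1 was the more abundant in every group. Its log2 ratio was -0.02 for the diet, 0.77 for Mafg LNA and -0.25 for LincIRS2 LNA. The list's median log2 ratio was 0.62, 0.04 and 0.04 in the same order. The glutathione transferase genes are also close copies of each other.

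**Figure D4:**
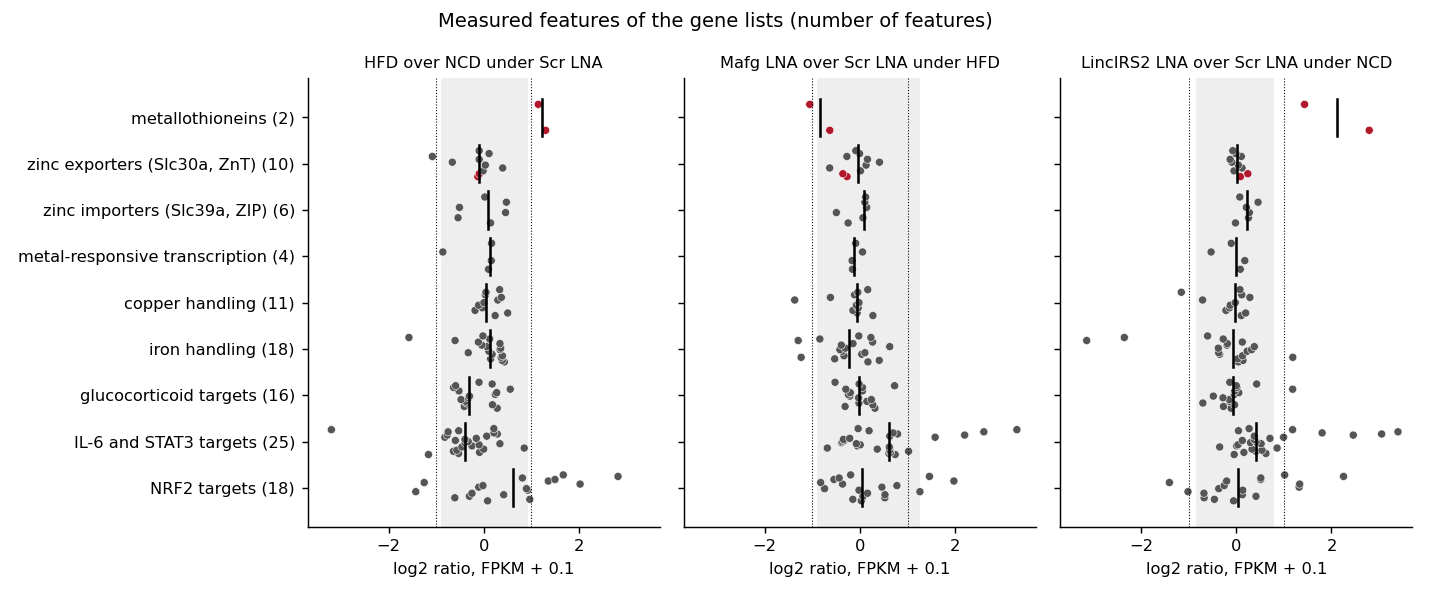
Log2 ratio of every measured feature of 9 gene lists in the 3 comparisons, with members in red, other genes in dark grey, a black bar at each list's median, dotted lines at 2-fold and a grey band from the 5th to the 95th percentile of all measured features. The metallothionein bar stands at 1.22 for the diet, -0.85 for Mafg LNA and 2.11 for LincIRS2 LNA, and the zinc exporter bar stays between -0.10 and 0.02.

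The features most like the metallothioneins over the 4 groups were ranked by the root mean square difference from the mean centred log2 profile of Mt1 and Mt2, among 7985 matched features with a mean of at least 1 FPKM. The median difference over these was 0.81. The nearest was Gm5457, a processed pseudogene, at 0.31, followed by the antisense transcript Gm15318 at 0.39. Psme2, a subunit of the proteasome activator, was at 0.40, Mup-ps12, a pseudogene of the major urinary proteins, at 0.40 and Hmgcs1, an enzyme of cholesterol synthesis, at 0.43. Mt1 and Mt2 themselves lay 0.26 from their mean, and the Slc30a10 features 0.69 and 0.74. In Hmgcs1 the levels were 1.07 FPKM in Scr LNA NCD, 1.55 FPKM in Scr LNA HFD, 0.644 FPKM in Mafg LNA HFD and 2.35 FPKM in LincIRS2 LNA NCD. A likeness over 4 values is weak, and it says nothing of shared control.

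**Figure D5:**
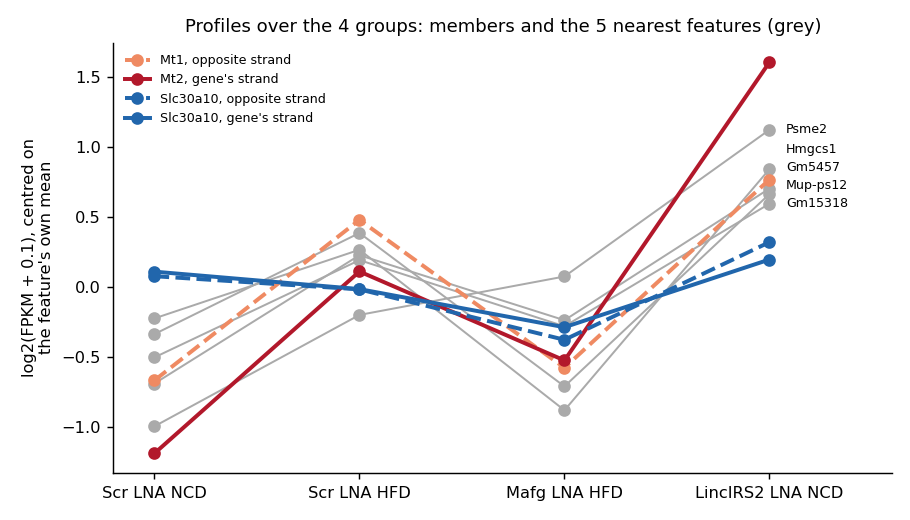
Log2(FPKM + 0.1) in the 4 groups, centred on each feature's own mean, for the members (coloured; dashed on the opposite strand) and the 5 nearest other features (grey); lines join groups only to guide the eye. Mt2 runs from -1.19 in Scr LNA NCD to 1.6 in LincIRS2 LNA NCD, and the Slc30a10 features stay between -0.38 and 0.32.

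The labelled tissue was checked against markers. Hepatocyte markers were high: 7 genes without Alb summed to 2056 to 3936 FPKM per group. Alb, the albumin gene, was listed at 0 in 3 groups and at 2663 FPKM in LincIRS2 LNA NCD, so a 0 in these tables can be a failed estimate, and Ttr and Trf were not measured. 4833411C07Rik, the target of the LincIRS2 LNA, was at 0.558 FPKM in Scr LNA NCD and 0.345 FPKM in LincIRS2 LNA NCD, as 1 of 2 transcripts. It was at 0.213 FPKM in Scr LNA HFD and 0.483 FPKM in Mafg LNA HFD, so the group given the LincIRS2 LNA was not the lowest. Mafg itself was not analysed here. Markers of other cells moved with the groups. The neutrophil markers, 5 of 6 genes without Ly6g, summed to 33.1 FPKM in Scr LNA NCD, 2.80 FPKM in Scr LNA HFD, 9.68 FPKM in Mafg LNA HFD and 2.94 FPKM in LincIRS2 LNA NCD. All 11 of their features were past 2-fold lower under the high-fat diet and with LincIRS2 LNA, and 8 were higher with Mafg LNA. Of all measured features 3.94% were lower under the high-fat diet, 3.26% lower with LincIRS2 LNA and 7.89% higher with Mafg LNA. The group with the lowest Mt1 and Mt2 thus had the highest neutrophil markers. The 9 macrophage markers summed to 67.5, 41.1, 53.9 and 36.3 FPKM in the same order. Erythroid markers, 4 of 5 genes, summed to 2159 to 2279 FPKM in 3 groups and 995 FPKM in Mafg LNA HFD. Endothelial markers summed to 16.3 to 19.4 FPKM and stellate cell markers to 71.1 to 79.6 FPKM. Of intestinal markers 1 of 5 genes was measured, of pancreatic acinar markers 1 of 7, of adipocyte markers 1 of 4 and of cholangiocyte markers 4 of 6. The part of these cells in the metallothionein differences was not tested.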

How the data were processed

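Liver RNA was depleted of ribosomal RNA and sequenced as strand-specific paired-end libraries. The submitters' processing notes name Bowtie2 2.2.9, STAR 2.6.0c, Cufflinks 2.2.1 and Cuffdiff on GRCm38. The authors deposited FPKM values, 1 per group and feature after pooling the 4 livers of a group, in 3 tables that each hold 1 comparison. The tables also hold the authors' fold changes, test statistics, p-values and q-values, which were not used. Tables were joined by feature, and the groups that tables share had identical values. Ratios were log2((FPKM + 0.1)/(FPKM + 0.1)), a feature counted as measured at a mean of at least 0.1 FPKM over the 4 groups, and no test was made.

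The members, gene lists, markers and motifs were chosen with earlier results of these data known. Named genes were all features of the members, Mtf1, up to 5 genes per list past 2-fold in a comparison, and the 5 features nearest in profile. Outside this rule, Fga, Fgb, Fgg, Hp, Lbp, Orm1, Socs3, Sp1, Mtf2 and Zfp658 were also named, though no feature of theirs was past 2-fold. Gm45774, Gm39228 and Nup93 were added after their values were seen. Alternatives were 0 or 1 FPKM added, no minimum or a minimum of 1 FPKM, 1.5-fold, the highest feature per gene, and scaling by the median ratio or by summed FPKM. Own-strand features alone were added as an alternative after seeing the data. Calculations used Python 3.11.15 with pandas 2.3.3 and numpy 2.4.6, and the counting and the strand inference were tested on simulated data.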

Additional observations from a re-analysis of the deposited data

How the results depend on the processing

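With 1 pooled value per group, no liver could be left out and no spread, depth or test could be had. No paired analysis was possible because the columns carry no replicate. Of 48 single ratios recomputed with 0 or 1 FPKM added or with another scaling, 47 kept their sign. The exception was the Slc30a10 feature on its own strand with LincIRS2 LNA, at -0.02 after scaling to summed FPKM. That scaling shifted the ratios by -0.03 for the diet, 0.17 for Mafg LNA and -0.13 for LincIRS2 LNA. Over these settings the Mt2 ratio ran from 1.19 to 1.31 for the diet, -0.64 to -0.46 for Mafg LNA and 2.63 to 2.81 for LincIRS2 LNA. Mt1 ran from 1.01 to 1.16, -1.07 to -0.88 and 1.27 to 1.45. Past 2-fold lower with Mafg LNA, the 1 member feature became 0 with 1 FPKM added, 0 with summed FPKM scaling, 0 with own-strand features alone and 2 at 1.5-fold. With own-strand features alone, which leaves out the measured Mt1 feature, 1 feature rather than 2 was past 2-fold higher for the diet and 1 for LincIRS2 LNA.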

Other observations

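Near the metallothionein genes, within 50 kb of their loci, 10 features were listed and 4 measured. Gm45774, an antisense transcript annotated at the same locus as Mt2, was at 0.473 FPKM in Scr LNA NCD, 0.991 FPKM in Scr LNA HFD, 0.467 FPKM in Mafg LNA HFD and 1.00 FPKM in LincIRS2 LNA NCD. Its groups fell in the order of Mt1 and Mt2 except that Mafg LNA HFD was lowest. The long noncoding Gm39228 was at 0.135 FPKM in Scr LNA HFD and 0.0893 FPKM in LincIRS2 LNA NCD, and listed at 0 in the other groups. Nup93, a nuclear pore gene, stayed between 0.725 and 0.807 FPKM. These neighbours were named after their values were seen.

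Lists of copper and iron genes were set beside the members. In the copper list, 11 measured features of 7 genes, 0 were past 2-fold for the diet, and 1 was lower in each LNA comparison, where 4% of all measured features were lower with Mafg LNA and 3.26% with LincIRS2 LNA. With Mafg LNA it was that of the copper transporter gene Slc31a2, at 0.213 FPKM in Scr LNA HFD and 0.0209 FPKM in Mafg LNA HFD. With LincIRS2 LNA it was 1 feature of Atp7a, a copper pump, at 0.513 FPKM in Scr LNA NCD and 0.175 FPKM in LincIRS2 LNA NCD.

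In the iron list, 18 measured features of 13 genes, 1 was past 2-fold lower for the diet, beside 3.94% of all features. The Mafg LNA comparison had 2 lower, beside 4% of all features, and the LincIRS2 LNA comparison had 2, beside 3.26%. Higher were 0, 0 and 1, where all features gave 4.19%, 7.89% and 3.12%. Hamp2, a hepcidin gene, was at 0.812 FPKM in Scr LNA NCD and 0.00334 FPKM in LincIRS2 LNA NCD, and at 0.50 FPKM in Scr LNA HFD and 0.144 FPKM in Mafg LNA HFD. The own-strand feature of Hpx, the gene of the haem carrier haemopexin, had a log2 ratio of -1.57 for the diet and -2.35 for LincIRS2 LNA, from 0.410 FPKM in Scr LNA NCD, whereas its opposite-strand feature was at 63.1 to 75.8 FPKM in the 4 groups. The feature of Tfrc, the transferrin receptor, was lower with Mafg LNA (log2 ratio -1.24) and higher with LincIRS2 LNA (1.19), as 1 of 15 transcripts. All of these past 2-fold had levels under 1 FPKM in the groups compared.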
